A study of Mus musculus with 38 samples.

Results

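The comparison described here is the response of IL-23R KO Th17 cells in culture to dexamethasone (Dex), a synthetic glucocorticoid. It rests on 8 of the 38 libraries of the series, 4 labelled KO_Dex (replicates 5 to 8) and 4 labelled KO_Ctrl (replicates 5 to 8), chosen by those labels and described across the 10813 genes that had enough counts to be tested. Naive T cells of IL23R KO mice on a C57/B6 background, taken from spleen and draining lymph node, were differentiated in culture into inflammatory Th17 cells (Th17Inf) and kept for 2 days with or without Dex. Both groups therefore carry the deletion, and they differ by the drug alone as far as the labels say. Live cells were sorted, 2000 per library, and poly(A) RNA was amplified for 12 cycles by a SMART-Seq2 type protocol. WT C57/B6 cultures made the same way, 4 with Dex and 4 without (replicates 1 to 4), were used for the comparison between genotypes. The sources used here give neither the dose of Dex, nor the part of Il23r that is deleted, nor whether replicates came from separate mice or cultures, so p-values measure the spread between these libraries, which may be technical.

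Glucocorticoids bind the glucocorticoid receptor (GR, encoded by Nr3c1), which waits in the cytoplasm on HSP90 and its partner proteins, moves to the nucleus and there switches on feedback and anti-inflammatory genes such as Tsc22d3 while holding back cytokine genes driven by NF-kB, AP-1 and NFAT. IL-23, a dimer of the p19 chain (Il23a) and p40, acts on Th17 cells through IL-23R and keeps them producing inflammatory cytokines. The title of the study concerns the control of GR activity by IL-23. The comparison asks what the drug does in cells labelled as lacking the receptor for that signal.

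Levels below are CPM, counts relative to library sizes scaled by the trimmed mean of M values (TMM), in the order of replicates 5, 6, 7 and 8. A gene is called changed at an adjusted p under 0.05 in the quasi-likelihood test of edgeR with Benjamini-Hochberg adjustment over all genes tested. Changes are log2 values, Dex minus control, so that 1 is a doubling and -1 a halving.

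The 8 libraries held 3320586 to 4630765 counts and did not look alike in composition. Features of satellite repeats and rRNA held 13.4% to 22.0% of counts without Dex and 30.4% to 37.3% with Dex, and the mitochondrially encoded genes took 1.56% to 1.91% and 0.359% to 0.447%. In WT libraries the same shares ran from 15.9% to 18.8% without and 20.9% to 25.3% with Dex for repeats, and from 1.82% to 2.26% and 1.46% to 2.26% for mitochondrial genes. Among the controls, replicates 6 and 8 lay close to each other, as did 5 and 7 (chi-square per degree of freedom 3.74 and 4.44, against 12.9 to 20.1 for the other pairs), and no pair agreed within sampling noise. T cell markers (11 genes) summed to 3467 to 3707 CPM in the controls and 2790 to 3212 CPM with Dex, while the CD8 marker Cd8a had no count in either group. Il17a, which defines Th17 cells, was at only 2.68 to 14.02 CPM in the controls. Of the 17 macrophage and dendritic markers, Lyz2, C1qb, C1qc and Fcer1g had no count in either group. Csf1r, Itgax, Mrc1 and Tyrobp had counts only without Dex, and Adgre1 only with Dex. The summed level was 241 to 396 CPM without and 925 to 1079 CPM with Dex. Of the 5 members tested, 3 rose and 1 fell, with log2 changes from -1.99 to 2.25. The MHC class II gene H2-Ab1, named after its value was seen, rose by 1.78 in log2. Markers of CD8 and cytotoxic cells summed to 1370 to 1970 CPM and 658 to 782 CPM, those of B cells to 70.2 to 84.0 and 76.0 to 89.5 CPM, and those of gamma delta and innate lymphoid cells, Kit and Il7r among them, to 31.7 to 54.1 and 94.4 to 126 CPM. The 10 granulocyte and mast cell markers had no count in any control and summed to 0 to 6.229 CPM with Dex, where the 1 member tested, the neutrophil marker Ly6g, named after its values were seen, gave 0, 0.342, 5.38 and 0.531 CPM and was called (adjusted p 0.041), though not without Dex replicate 7 or any 1 control (adjusted p 0.0586 to 0.267). Their part in the results was not tested.

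**Figure D1:**
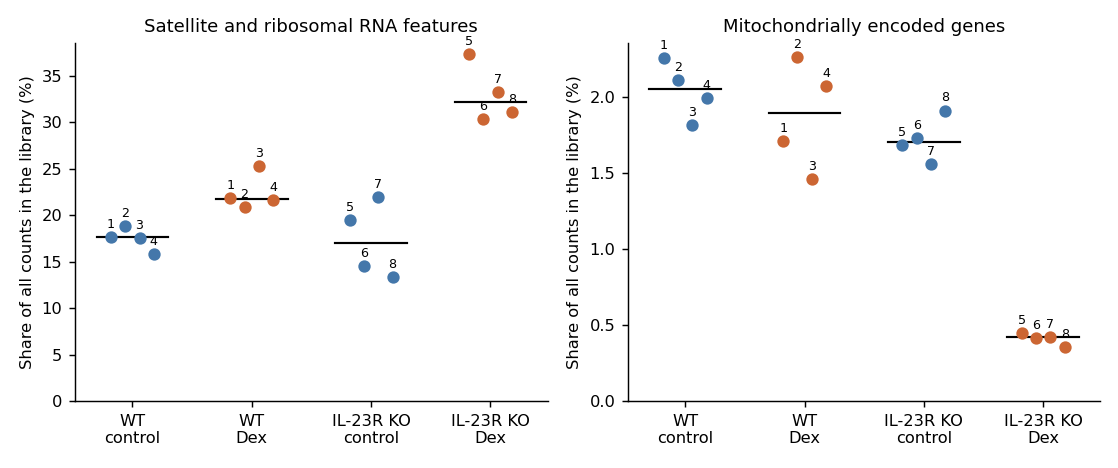
Share of all counts, in percent, that fell on satellite and ribosomal RNA features (left) and on mitochondrially encoded genes (right) in each of the 16 libraries in culture; points are libraries labelled by replicate number and bars are group medians. The 4 KO libraries with Dex stand apart from the other 12 in both shares, at 30.4% or more on the left and 0.447% or less on the right.

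Dex changed the expression of 5911 of the 10813 genes tested in IL-23R KO cells (54.7%), 2950 upward (27.3%) and 2961 downward (27.4%). At least a 2-fold change was called for 1269 genes that rose (11.7%) and 1138 that fell (10.5%), a 4-fold change for 225 and 229, and a 16-fold change for 23 and 36. The 4 Dex libraries lay wholly above or wholly below the 4 controls for 5185 genes (48.0%). The median log2 change over all genes was 0.011, and the median size of a change was 0.53, against 0.20 in WT cells. Scaling by library totals alone, with the repeat counts left in, moved the median gene to -0.45 and the calls to 1364 upward and 5236 downward, so directions below are relative to the other genes. Without control replicates 6 and 8, a pair chosen after the data were seen, 4518 genes were called, and without replicates 5 and 7, 5782.

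The targeted gene and the drug's standard reporters were looked at first. Il23r (chr6:67422932-67491855, GRCm38) gave 3.97, 5.28, 2.14 and 4.55 CPM in the controls and 1.503, 2.39, 1.98 and 2.12 CPM with Dex, overlapping ranges with a called fall (log2 change -1.02, SE 0.37, adjusted p 0.0275). The call was lost without control replicate 6 or 8 (adjusted p 0.0848 and 0.0615) and without Dex replicate 5 or 7 (0.0742 and 0.0556). It gave 5.79 to 8.03 CPM in the 4 WT control libraries and 5.89 to 15.9 CPM in the 4 WT Dex libraries. Counts from an undeleted part of the gene check neither the deletion nor the receptor. Tsc22d3, which encodes the glucocorticoid-induced leucine zipper GILZ, gave 22.9, 14.5, 33.0 and 21.04 CPM in the controls and 215, 201, 221 and 223 CPM with Dex. Every Dex library stood above every control by a wide margin (9.55-fold, log2 change 3.26, SE 0.20, adjusted p 1.51e-09). Nr3c1, the receptor itself, rose as well, from 2.65 to 3.75 CPM in the controls to 8.20 to 10.8 CPM with Dex (log2 change 1.596, SE 0.20, adjusted p 4.05e-06). Fkbp5, the co-chaperone through which the receptor limits its own activity, did not pass the test: it gave 5.37, 6.26, 6.43 and 6.82 CPM in the controls and 8.12, 7.86, 6.23 and 7.97 CPM with Dex (log2 change 0.27, SE 0.18, adjusted p 0.24). Fkbp5 did rise in WT cells (log2 change 1.06, adjusted p 0.00117), and the 2 responses differed (difference -0.78, SE 0.25, adjusted p 0.0239). That difference was not called in DESeq2 (adjusted p 0.096), with no filter on low counts (0.0594), with repeat features removed at equal depth (0.102), without control replicates 6 and 8 (0.102) or without Dex replicate 7 (0.0507).

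Of the genes known as glucocorticoid-induced, 16 of 19 tested rose and none fell, with a median log2 change of 1.68 (0.011 over all genes tested). Txnip, an inhibitor of thioredoxin and of glucose uptake, gave 20.8, 15.7, 28.7 and 19.9 CPM in the controls and 145, 145, 146 and 169 CPM with Dex (log2 change 2.85, SE 0.15, adjusted p 2.67e-10). The groups were far apart. Pik3ip1, an inhibitor of PI3 kinase, rose 6.10-fold (log2 change 2.61, adjusted p 3.15e-08). The metallothioneins Mt1 and Mt2, zinc-binding proteins, rose 4.62-fold and 5.29-fold: Mt1 gave 816, 641, 786 and 717 CPM in the controls and 3206, 3314, 3475 and 3681 CPM with Dex, again without overlap. Ddit4, which restrains mTORC1, rose 2.77-fold (log2 change 1.47, adjusted p 1.98e-06), and Per1, a clock gene under direct glucocorticoid control, 3.21-fold (log2 change 1.68, adjusted p 2.35e-07). Nfkbia, the inhibitor that keeps NF-kB in the cytoplasm, rose by 0.45 (0.000604 adjusted), a change that came to -0.003 when libraries were scaled by totals alone. Rgs2, a regulator of G protein signals, gave 3.03 to 7.43 CPM in the controls and 3.91 to 6.38 CPM with Dex and was not called (log2 change -0.03, adjusted p 0.941).

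The machinery that holds the receptor went the other way. Of 21 genes for GR, its chaperones and cofactors, 13 fell and 4 rose (median -0.42). Hsp90ab1, the constitutive HSP90, gave 2010, 2280, 2061 and 2148 CPM in the controls and 1018, 945, 952 and 1036 CPM with Dex. All Dex libraries were near the same level, 2.15-fold under the controls (log2 change -1.10, SE 0.05, adjusted p 8.6e-11). Hspa8, the constitutive HSP70, fell 2.44-fold (log2 change -1.29, adjusted p 1.36e-10), and the immunophilin co-chaperones Fkbp4 and Ppid fell 3.03-fold and 2.75-fold (adjusted p 1.03e-07 and 2.43e-07). The stress-inducible Hsp90aa1 fell by 0.40 (0.0106 adjusted), with overlapping groups, and was at -0.13 without control replicates 6 and 8 (adjusted p 0.324). Against these falls stood Ncoa2, a coactivator of the receptor, which rose from 7.39 to 12.4 CPM in the controls to 19.1 to 24.1 CPM with Dex (log2 change 1.11, adjusted p 0.00147; 0.0504 without control replicates 6 and 8). The responses of Hsp90ab1 and Hspa8 were more negative than in WT cells (difference -1.06, SE 0.07, adjusted p 3.65e-08 and difference -1.24, SE 0.09, adjusted p 4.94e-08, in log2).

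**Figure D2:**
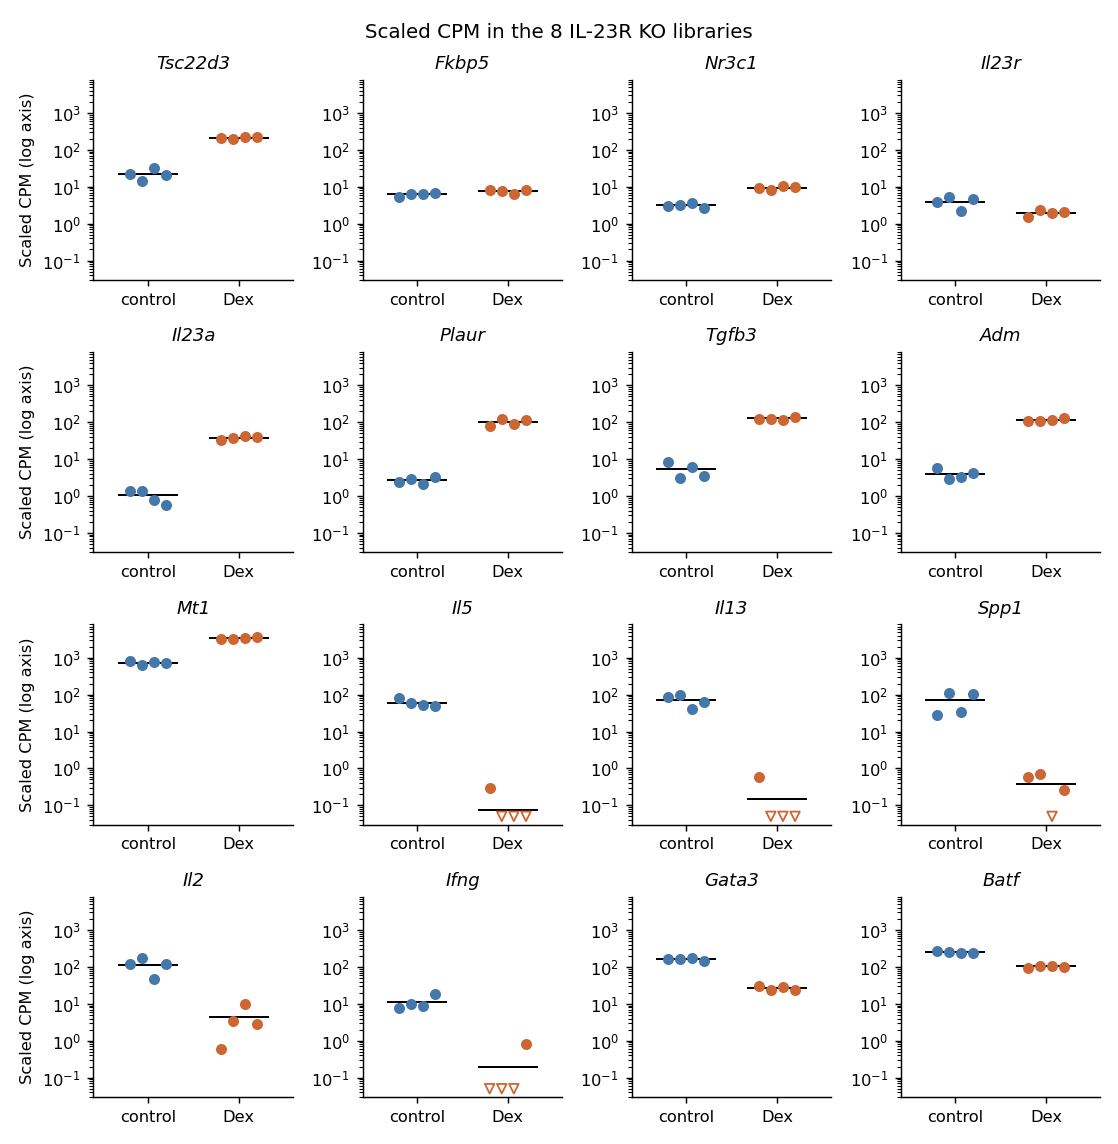
CPM on TMM-scaled library sizes (log axis) of 16 genes in the 4 control (blue) and 4 Dex (orange) IL-23R KO libraries; points are libraries in the order of replicates 5 to 8, bars are group means and open triangles at the bottom mark libraries with no count. Tsc22d3, Il23a, Plaur, Tgfb3, Adm and Mt1 separate upward, Il5, Il13, Spp1, Il2, Ifng, Gata3 and Batf separate downward, and the groups overlap for Fkbp5 and Il23r.

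Several cytokine genes were among the deepest falls, beside genes of other kinds, and the type 2 cytokines Il5 and Il13 came first by fitted value. Il5 gave 81.4, 61.0, 52.8 and 48.9 CPM in the controls and 0.3005, 0, 0 and 0 CPM with Dex, which is 1 count in the 4 Dex libraries against 1116 in the controls (ratio 822, 95% counting interval 147 to 32477). Il13, its neighbour on chromosome 11 and, like Il5, a cytokine of allergic inflammation, gave 84.0, 101, 41.0 and 64.2 CPM in the controls and 0.601, 0, 0 and 0 CPM with Dex (ratio 503, 95% counting interval 139 to 4156). Both were all but silent with Dex. Gata3, the master transcription factor of this lineage, gave 165, 166, 176 and 147 CPM in the controls and 29.8, 23.9, 28.9 and 24.2 CPM with Dex and fell 6.12-fold (log2 change -2.61, SE 0.14, adjusted p 4.14e-10). Il3, a haematopoietic growth factor, fell 27.5-fold, from 63.2 to 149.9 CPM in the controls to 1.59 to 5.95 CPM with Dex (log2 change -4.78, adjusted p 6.74e-09). Il9 fell 10.6-fold, but 1 Dex library held most of what remained: it gave 70.5, 40.1, 28.7 and 21.2 CPM in the controls and 0, 1.02, 13.6 and 0 CPM with Dex (log2 change -3.41, adjusted p 0.00239; -6.93 without Dex replicate 7). Ccr8, a chemokine receptor of type 2 and regulatory cells, fell 3.14-fold and Il24, an IL-10 family cytokine, 2.37-fold (adjusted p 2.02e-07 and 3.32e-06). In all, 10 of the 14 tested genes of the type 2 list fell and 2 rose, the latter being the IL-4 receptor chain Il4ra (log2 change 0.46) and its signal transducer Stat6 (0.51), neither of them called with totals alone (adjusted p 0.98 and 0.717). Their median was -1.45, and it was -0.98 in WT cells, where 8 members fell. In bulk RNA, fewer cells of a type and less RNA per cell cannot be told apart.

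Genes of inflammatory T cells followed. Ifng, the type 1 cytokine interferon gamma, gave 7.93, 9.78, 8.84 and 18.0 CPM in the controls and 0, 0, 0 and 0.797 CPM with Dex (ratio 52.0, 95% counting interval 17.6 to 254; adjusted p 0.000194). Tbx21, the type 1 master regulator T-bet, fell 6.70-fold, from 20.1 to 42.5 CPM in the controls to 3.40 to 6.61 CPM with Dex (log2 change -2.74, adjusted p 5.96e-06). The death ligand Fasl gave 21.5, 21.9, 18.2 and 26.7 CPM in the controls and 0.601, 0.683, 3.68 and 0.797 CPM with Dex, with no overlap (log2 change -3.89, SE 0.40, adjusted p 4.79e-07; -4.93 without Dex replicate 7), and the type 1 chemokine receptor Cxcr3 fell 4.27-fold (log2 change -2.10, adjusted p 5.42e-07). Other members of the type 1 list rose, among them the transcription factor Runx3 by 0.80 and the IL-12 receptor chain Il12rb2 by 0.73 (adjusted p 3.14e-05 and 0.00037; 0.188 for Il12rb2 with totals alone). That list counted 6 falls and 3 rises among 11 tested. The list of pathogenic Th17 genes counted 9 falls and 3 rises among 16 tested, with a median of -0.69. For both lists the shares over all genes tested were 27.4% down and 27.3% up. Spp1, the secreted phosphoprotein osteopontin, gave 27.8, 114, 34.3 and 107 CPM in the controls and 0.601, 0.683, 0 and 0.266 CPM with Dex. Controls 6 and 8 were above 100 CPM and 5 and 7 below 35 CPM, yet every Dex library was under 1 CPM (179.6-fold, log2 change -7.49, SE 0.85, adjusted p 1.37e-06). Il2, the T cell growth factor, gave 119, 169.8, 46.1 and 122 CPM in the controls and 0.601, 3.42, 10.19 and 2.92 CPM with Dex and fell 26.3-fold (log2 change -4.71, SE 0.47, adjusted p 3.27e-07; -5.63 without Dex replicate 7). The chemokines Ccl3 and Ccl4, which draw in monocytes and T cells, fell 21.3-fold and 6.56-fold (log2 changes -4.41 and -2.71, adjusted p 0.00116 and 0.00205). Control replicate 6 carried much of this: without it the log2 changes were -3.61 and -1.99, without Dex replicate 5 that of Ccl4 was -3.62, and without control replicates 6 and 8 Ccl4 was not called (adjusted p 0.108). Gzmb, a cytotoxic protease, fell from 871 to 1247 CPM in the controls to 583 to 679 CPM with Dex (log2 change -0.83, adjusted p 0.00502; 0.0845 without control replicates 6 and 8). No IL-23R KO library had a count of Csf2, the cytokine GM-CSF, so no change of it could be seen.

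Genes of the Th17 programme were called in both directions. Of 13 tested genes, 3 rose and 4 fell, shares near the 27.3% and 27.4% of all genes tested, with a median of -0.78. Il17a, the signature cytokine, gave 13.5, 8.22, 2.68 and 14.02 CPM in the controls and 0, 1.02, 0 and 1.86 CPM with Dex, a low level in every library, and fell (log2 change -3.69, SE 1.42, adjusted p 0.0361). The call was lost without control replicate 5, 6 or 8 and without Dex replicate 5, 6 or 7 (adjusted p 0.0525 to 0.0857), and the log2 change was -4.88 without Dex replicate 8. Il17f was at 1.88 to 7.0 CPM in the controls and 1.503 to 2.66 CPM with Dex, with overlapping groups (log2 change -0.78, adjusted p 0.553). Batf, an AP-1 partner needed for the lineage, gave 267, 251, 241 and 242 CPM in the controls and 96.2, 109, 109 and 97.8 CPM with Dex and fell 2.43-fold without overlap (log2 change -1.28, SE 0.08, adjusted p 1.07e-09). Against them, Rora, the nuclear receptor RORα, gave 11.2, 9.98, 11.5 and 12.7 CPM in the controls and 36.7, 41.4, 45.6 and 35.9 CPM with Dex and rose 3.504-fold (log2 change 1.81, SE 0.18, adjusted p 2.41e-07). Il6ra, the IL-6 receptor, rose 2.88-fold (log2 change 1.52, adjusted p 7.84e-06), and Stat3, which transmits IL-6 and IL-23 signals, by 0.39 (-0.064 with totals alone). Il21 and Irf4 did not pass the test (log2 change -0.25, adjusted p 0.0809, and log2 change -0.14, adjusted p 0.0882).

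The largest rises came from genes of many kinds. Irgc1, an immunity-related GTPase, went from 1 count in the 4 controls to 139 with Dex (ratio 189, 95% counting interval 33.3 to 7511), and Lpar3, a receptor for lysophosphatidic acid, from 3 counts to 140 (ratio 63.4, 95% counting interval 21.3 to 311). Plaur, the urokinase receptor, gave 2.33, 2.94, 2.14 and 3.22 CPM in the controls and 81.5, 125, 92.6 and 118 CPM with Dex, a 38.1-fold rise (log2 change 5.25, SE 0.27, adjusted p 2.34e-10). Il23a, the p19 chain of IL-23, gave 1.40, 1.37, 0.804 and 0.569 CPM in the controls and 33.4, 37.6, 43.0 and 40.1 CPM with Dex (36.3-fold, log2 change 5.18, SE 0.38, adjusted p 8.96e-09). Il23a is a chain of the ligand whose receptor gene is labelled as deleted in these cells. Tgfb3, a TGF-beta ligand counted among genes of pathogenic Th17 cells, gave 8.40, 3.13, 6.16 and 3.41 CPM in the controls and 124, 124, 118 and 141 CPM with Dex (24.7-fold, log2 change 4.62, SE 0.25, adjusted p 4.05e-10). Isg20, an exonuclease better known as an interferon-stimulated gene, rose 27.5-fold, from 3.72 to 13.1 CPM in the controls to 237 to 312 CPM with Dex (adjusted p 4.05e-10). Each of these 4 rose in WT cells too: the log2 change there was 3.09 for Plaur, 2.65 for Il23a, 2.28 for Tgfb3 and 1.95 for Isg20, and the rise was larger in KO cells for all 4 by the test of the difference (adjusted p 0.00271, 0.00926, 0.000179 and 3.97e-05). Without WT control replicate 4 the difference of Il23a was no longer called (adjusted p 0.0565).

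Other large rises had no called counterpart in WT cells, and for most of those described here the difference itself passed the test. Adm, which encodes the vasodilator peptide adrenomedullin, gave 5.6, 2.94, 3.21 and 4.17 CPM in the controls and 108, 106, 118 and 129.9 CPM with Dex (29.0-fold, log2 change 4.86, SE 0.16, adjusted p 2.55e-12), against -0.49 in WT cells (difference 5.35, SE 0.27, adjusted p 4.23e-09). Dntt, the template-free DNA polymerase TdT of developing lymphocytes, rose 11.6-fold, and Gipr, the receptor for a gut incretin, 10.22-fold (differences 3.13 and 3.38, adjusted p 0.000506 and 2.12e-06). Arrdc3, an arrestin-like regulator of receptor uptake, rose 12.6-fold (log2 change 3.65, and 4.26 without control replicate 5), and Lrp1, an endocytic receptor, 13.4-fold (differences 3.08 and 2.59, adjusted p 0.000464 and 0.00256). Kit, the stem cell factor receptor, rose 17.1-fold (log2 change 4.09, SE 0.78, adjusted p 0.00029; 4.74 without control replicate 7), but its difference from WT cells was not called (adjusted p 0.0603), nor was that of Impg2, which rose 27.5-fold here and by 2.75 in log2 in WT cells (adjusted p of the difference 0.0867). Cxcl2, a neutrophil chemokine, went from 3 counts in the controls to 115 (ratio 52.1, 95% counting interval 17.4 to 256). Its difference from WT cells did not hold: it went to 1.148 without WT control replicate 1 (adjusted p 0.775) and was not called with a replicate block (adjusted p 0.0744) or without 1 of several other libraries.

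Other genes that nearly vanished are better known from other tissues. Pth, parathyroid hormone, gave 9.33, 9.78, 18.2 and 10.04 CPM in the controls and 0, 0, 0 and 0 CPM with Dex and was at least 51.8-fold lower, and Dclk1, a microtubule kinase of neurons, gave 7.47, 15.3, 8.30 and 15.3 CPM in the controls and 0, 0, 0 and 0 CPM with Dex and was at least 54.5-fold lower, both bounds set at 3 counts over the 4 Dex libraries. Rapsn, which clusters acetylcholine receptors at the muscle synapse, fell from 215 counts to 2 (ratio 79.1, 95% counting interval 21.6 to 658). Slc17a6, a vesicular glutamate transporter, fell 18.7-fold (log2 change -4.23, adjusted p 1.41e-08), and Msc, the transcription factor musculin, fell 34.9-fold (adjusted p 2.48e-06). The histone gene Hist1h2ag fell 26.6-fold (log2 change -4.73, adjusted p 0.000437). Its copies share sequence, so its reads can belong to another copy.

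Genes of the hypoxia response and of glycolysis rose as groups. Hypoxia-inducible factors (HIF) bind the sequence ACGTG near genes for glucose use, and prolyl hydroxylases and VHL mark HIF1A for destruction. To show where that core stands, promoters (from 250 bases before the RefSeq start of transcription to 30 after it, GRCm38.p6) are printed for Adm, the HIF target that rose most, and for Ankrd37, which rose 6.70-fold and holds the core near the far end of its window and near the start, with ACGTG or its reverse complement CACGT in capitals. Adm has none in its window (chr7:110627407-110627686, plus strand) and Ankrd37, a gene of ankyrin repeats, has 2 (chr8:45999821-46000100, minus strand).
Adm: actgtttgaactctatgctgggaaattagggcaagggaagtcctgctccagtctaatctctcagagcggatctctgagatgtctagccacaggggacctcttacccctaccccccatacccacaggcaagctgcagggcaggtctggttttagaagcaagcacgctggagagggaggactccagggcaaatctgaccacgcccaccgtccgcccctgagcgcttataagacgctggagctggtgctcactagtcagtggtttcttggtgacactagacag
Ankrd37: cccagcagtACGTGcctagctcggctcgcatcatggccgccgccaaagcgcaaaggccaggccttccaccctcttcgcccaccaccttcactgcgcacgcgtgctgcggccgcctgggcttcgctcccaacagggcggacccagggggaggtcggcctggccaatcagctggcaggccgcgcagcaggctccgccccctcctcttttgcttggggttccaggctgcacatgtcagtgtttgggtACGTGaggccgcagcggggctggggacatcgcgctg
In windows of 300 bases, 250 before and 50 after the start and both strands read, ACGTG was in 14 of 23 HIF target promoters (60.9%) and 9 of 20 glycolysis promoters (45.0%), against 2211 of the 8224 found for genes tested (26.9%). It was in 27.7% of promoters of genes that rose 2-fold and 25.5% of those that fell 2-fold. The palindromic glucocorticoid response element, AGAACA and TGTTCT 3 bases apart, was in none of the 8224 windows. A match is a description of the letters, not a site, and no match says nothing of the factor.

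Of the HIF targets outside glycolysis, 23 of 28 tested rose, none fell, and the median was 1.496; in WT cells it was 0.03. Ndrg1, a stress-response protein, gave 123, 73.2, 129.9 and 94.0 CPM in the controls and 785, 896, 820.0 and 919 CPM with Dex (8.18-fold, log2 change 3.03, SE 0.16, adjusted p 2.76e-10). Ankrd37 gave 63.0, 30.9, 60.5 and 28.2 CPM in the controls and 351, 265, 284 and 309 CPM with Dex (6.70-fold, log2 change 2.74, SE 0.22, adjusted p 2.73e-08). In both, controls 6 and 8 were the lowest and all Dex libraries were far above every control. The collagen hydroxylases Plod2, P4ha1 and P4ha2 rose 6.58-fold, 3.39-fold and 2.99-fold (adjusted p 2.09e-08, 5.07e-10 and 1.89e-08), and the histone demethylase Kdm3a 5.03-fold (log2 change 2.33, adjusted p 7.63e-09). The mitophagy receptors Bnip3 and Bnip3l rose 2.67-fold and 2.31-fold, and Hilpda, which coats lipid droplets, 2.97-fold (adjusted p 3.11e-08, 8e-06 and 2.87e-08). Ero1l, an oxidase of protein folding, rose from 267 to 477 CPM in the controls to 1083 to 1171 CPM with Dex (log2 change 1.64, adjusted p 3.7e-08). Bhlhe40 and Plod1 did not pass the test (log2 change -0.12, adjusted p 0.0906, and log2 change -0.25, adjusted p 0.47). The pathway's own parts moved as well: 8 of 9 tested rose and none fell, among them the oxygen-sensing hydroxylases Egln1 (2.87-fold) and Egln3 (2.88-fold) and the ubiquitin ligase Vhl (2.46-fold), each itself a brake on HIF. Hif1a rose by 0.22 (adjusted p 0.00251), which was -0.24 with totals alone and not called with no filter on low counts (adjusted p 0.0638), and no difference from the response of WT cells was called (difference -0.05, SE 0.08, adjusted p 0.66). Without control replicates 6 and 8, 4 of these 9 were called, and with totals alone 3 were called higher and 1 lower. Their median in WT cells was 0.27. By the test of the difference, 3 of the 9 were more positive in KO cells.

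All 21 tested genes of glycolysis rose, each called, with a median of 0.99; none was called in WT cells (median 0.09) and 19 of them differed between genotypes. Pfkfb3, which makes the activator of phosphofructokinase, gave 18.9, 18.2, 20.9 and 16.1 CPM in the controls and 69.7, 73.1, 80.1 and 83.4 CPM with Dex (4.15-fold, log2 change 2.05, SE 0.12, adjusted p 7.19e-10). Gpi1, glucose-6-phosphate isomerase, gave 682, 554, 701 and 554 CPM in the controls and 2086, 1906, 2020 and 2142 CPM with Dex (3.27-fold, log2 change 1.71, SE 0.09, adjusted p 4.52e-10). These groups were far apart. The glucose transporters Slc2a1 and Slc2a3 rose 2.32-fold and 2.20-fold, and the hexokinases Hk1 and Hk2 2.22-fold and 2.23-fold (adjusted p 1.06e-07, 5.33e-06, 2.2e-09 and 2.23e-05). Pdk1, a kinase that inhibits pyruvate dehydrogenase, rose 2.62-fold (log2 change 1.39, adjusted p 4.63e-08). Gapdh, often used as a reference gene, gave 9500, 8035, 9552 and 8367 CPM in the controls and 18280, 16470, 17310 and 18370 CPM with Dex and rose 1.99-fold (log2 change 0.99, SE 0.07, adjusted p 7.77e-09). The smallest rise was that of lactate dehydrogenase Ldha, 1.29-fold (log2 change 0.37, adjusted p 2.34e-06), whose log2 change was -0.090 with totals alone.

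Mitochondrial genes fell, those of the mitochondrial genome most. Of 13 tested, 12 fell and none rose (median -2.13), 13 were more negative than in WT cells by the test of the difference, and the WT median was -0.07. mt-Nd1, a complex I subunit, gave 2133, 2375, 2177 and 2523 CPM in the controls and 299, 282, 260.5 and 229.8 CPM with Dex (8.6-fold lower, log2 change -3.10, SE 0.15, adjusted p 1.29e-10). mt-Atp6, of the ATP synthase, gave 2591, 2404, 2500 and 2785 CPM in the controls and 567, 384, 506 and 313 CPM with Dex (5.80-fold lower, log2 change -2.54, SE 0.17, adjusted p 4.47e-09). No Dex library came near a control. mt-Co1, a subunit of cytochrome oxidase, stood out from the rest: it gave 3108, 2343, 3049 and 2647 CPM in the controls and 2771, 2379, 2563 and 2235 CPM with Dex, overlapping groups (log2 change -0.16, SE 0.09, adjusted p 0.132). Its difference from WT cells was lost under several alternatives (adjusted p 0.051 to 0.183), among them a mean of at least 10 CPM (0.0679) and leaving out control replicate 5 (0.0715). Genes on the mitochondrial genome are cut from long shared transcripts, so they are not independent of each other.

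**Figure D3:**
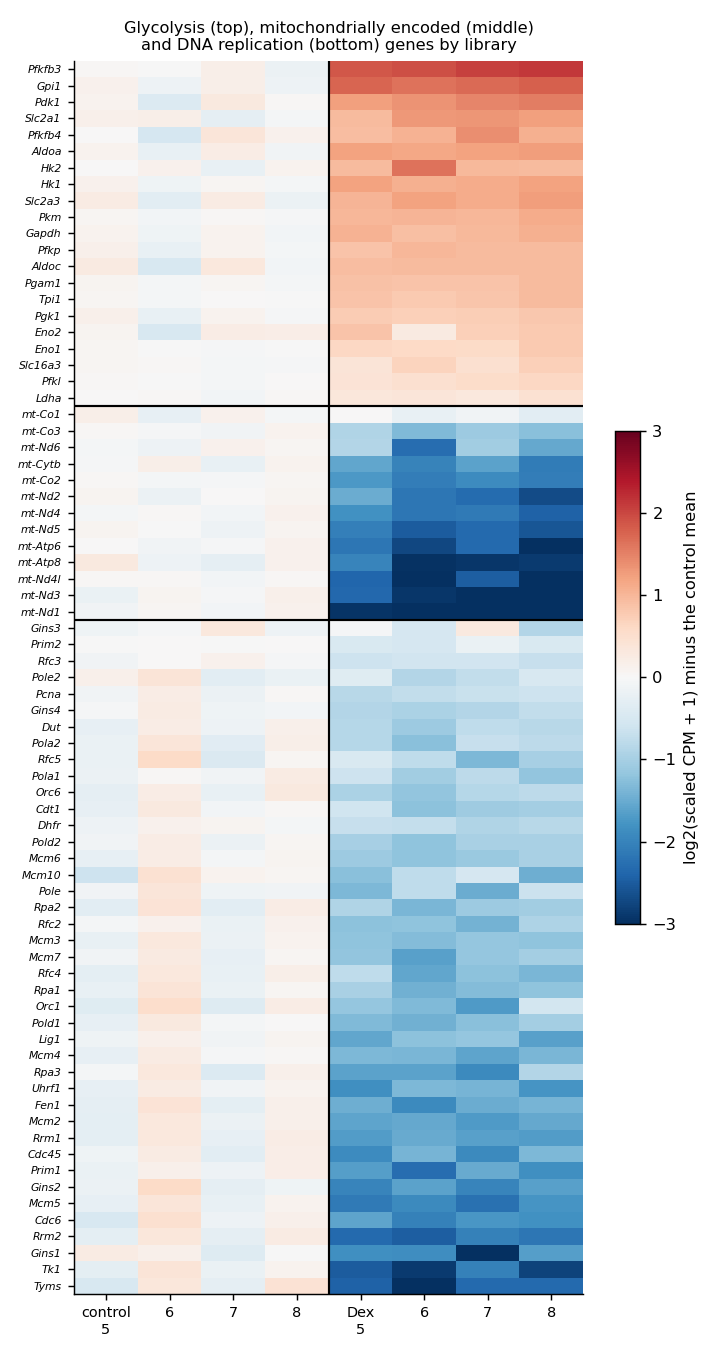
Heat map of 21 glycolysis, 13 mitochondrially encoded and 41 DNA replication genes (rows) in the 8 IL-23R KO libraries (columns); colour is log2(CPM + 1) minus the mean of the 4 controls, cut at 3 in either direction. All 21 glycolysis genes are higher in every Dex library than in any control, and 12 of the 13 mitochondrially encoded genes, all but mt-Co1, are lower in every Dex library. Of all 10813 genes tested, 48.0% had no overlap between Dex and control libraries in either direction.

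Nuclear genes for mitochondria fell less but widely. Of 57 tested subunits of oxidative phosphorylation, 41 fell and 3 rose (median -0.47). Atp5b, the catalytic subunit of the ATP synthase, fell from 1014 to 1331 CPM in the controls to 467 to 501 CPM with Dex (2.46-fold, log2 change -1.30, adjusted p 2.38e-09), Ndufa4 fell 2.33-fold and Cox5b 2.24-fold (adjusted p 2.31e-08 and 1.59e-09). Uqcrh and Ndufa6, of complexes III and I, rose by 0.56 and 0.51 (adjusted p 1.67e-05 and 0.00272), and neither was called with totals alone (0.188 and 0.646). In the tricarboxylic acid cycle, 21 of 22 fell and 1, Idh3b, rose (log2 change 0.18, and -0.28 with totals alone; not called without control replicates 6 and 8 or with no filter on low counts, adjusted p 0.0575 and 0.172). Idh3a, a subunit of the same isocitrate dehydrogenase as Idh3b, gave 73.7, 97.4, 71.3 and 94.4 CPM in the controls and 25.6, 20.9, 20.1 and 24.97 CPM with Dex, a 3.68-fold fall (log2 change -1.88, SE 0.14, adjusted p 1.57e-08). Mitochondrial ribosomal protein genes fell in 35 of 38 cases (median -0.75), led by Mrpl1 and Mrpl16 (2.60-fold and 2.57-fold, adjusted p 1.2e-06 and 6.18e-07). In the list of mitochondrial genome expression and import, 8 of 18 tested fell, 1 rose and 9 were not called (median -0.38). Its matrix chaperonins Hspd1 and Hspe1 fell 3.99-fold and 2.61-fold, and its import channel Tomm40 2.96-fold (adjusted p 1.38e-08, 2.26e-09 and 1.86e-07). Among all genes tested 27.4% fell and 27.3% rose.

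Genes of cell division fell together. Promoters of mitosis genes are known for CCAAT boxes and for the cell cycle genes homology region, TTTGAA or TTTCAAA, the second of which holds the reverse complement of the first. Promoters of 3 mitosis genes that fell more than 3-fold are shown, Ttk among them after its value was seen. They were chosen because they hold both in the window from 250 bases before to 30 after the RefSeq start (GRCm38.p6), where capitals mark CCAAT or ATTGG and the homology region on either strand. Matches can overlap, as CCAAT and ATTGG do in Ube2c. The same window of Plk1, which fell 4.48-fold, holds 1 CCAAT and no homology region and is not shown. The windows are those of Ttk (chr9:83834439-83834718, plus strand), Ube2c (chr2:164769679-164769958, plus strand) and Top2a (chr11:99024160-99024439, minus strand).
Ttk: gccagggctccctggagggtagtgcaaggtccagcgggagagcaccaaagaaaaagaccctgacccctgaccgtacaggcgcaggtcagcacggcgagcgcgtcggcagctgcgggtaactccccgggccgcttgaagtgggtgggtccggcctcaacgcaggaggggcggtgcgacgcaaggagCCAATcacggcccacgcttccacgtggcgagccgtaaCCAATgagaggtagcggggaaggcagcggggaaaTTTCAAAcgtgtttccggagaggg
Ube2c: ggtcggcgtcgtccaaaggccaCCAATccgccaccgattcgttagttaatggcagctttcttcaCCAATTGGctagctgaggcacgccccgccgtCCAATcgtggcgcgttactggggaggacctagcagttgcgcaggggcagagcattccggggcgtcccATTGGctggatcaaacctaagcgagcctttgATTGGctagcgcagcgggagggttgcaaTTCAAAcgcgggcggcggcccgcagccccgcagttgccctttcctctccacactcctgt
Top2a: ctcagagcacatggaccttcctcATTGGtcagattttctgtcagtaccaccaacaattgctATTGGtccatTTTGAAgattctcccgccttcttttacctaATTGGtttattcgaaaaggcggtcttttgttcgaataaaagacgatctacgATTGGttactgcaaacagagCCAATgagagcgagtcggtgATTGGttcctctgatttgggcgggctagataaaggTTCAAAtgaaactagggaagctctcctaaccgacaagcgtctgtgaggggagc
In the 300-base windows the homology region was in 24 of 30 mitosis promoters (80.0%) against 12.4% of the 8224 of genes tested, and CCAAT in 23 (76.7%) against 40.0%. DNA replication promoters held CCAAT in 63.6% and the homology region in 12.1%. Among genes that fell 2-fold the homology region was in 15.7%, and among those that rose 2-fold in 10.8%.

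The mitosis list counted 32 falls and no rise among 36 tested, with a median of -0.98 (-0.01 in WT cells, with no member called). Plk1, a kinase that drives mitotic entry, gave 47.4, 68.3, 45.5 and 60.6 CPM in the controls and 13.2, 11.96, 13.6 and 10.9 CPM with Dex (4.48-fold lower, log2 change -2.16, SE 0.15, adjusted p 4.35e-09). Top2a, the topoisomerase that untangles chromosomes, gave 108, 123, 115 and 122 CPM in the controls and 36.7, 32.5, 40.2 and 40.1 CPM with Dex (3.12-fold lower, log2 change -1.64, SE 0.10, adjusted p 1.19e-09). Ube2c, of the anaphase-promoting pathway, fell 3.18-fold, the checkpoint kinase gene Ttk 3.33-fold, cyclin B1 (Ccnb1) 3.73-fold and cyclin A2 (Ccna2) 3.597-fold (adjusted p 8.83e-09, 4.8e-07, 1.62e-08 and 3.14e-09). Bub1 and Anln did not pass the test (log2 change 0.05, adjusted p 0.744, and log2 change 0.16, adjusted p 0.542). DNA replication genes fell in 40 of 41 cases, with a median of -1.25, and 35 of them were more negative than in WT cells by the test of the difference. Tyms, thymidylate synthase, gave 58.3, 105, 67.8 and 111 CPM in the controls and 14.4, 7.52, 15.6 and 15.7 CPM with Dex (6.36-fold lower, log2 change -2.67, SE 0.23, adjusted p 6.33e-08), and thymidine kinase Tk1 and the ribonucleotide reductase subunit Rrm2 fell 6.12-fold and 4.98-fold (adjusted p 1.93e-08 and 8.83e-09). Controls 6 and 8 were the higher ones for Tyms, and each Dex library lay under every control. Pcna, the replication clamp, fell 1.66-fold (log2 change -0.73, adjusted p 2.58e-06).

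Genes that decide on entry into the cycle were split, 11 up and 6 down of 23 tested (median 0.41, and -0.067 with totals alone). Among all genes tested 27.3% went up and 27.4% down. The inhibitor p27 (Cdkn1b) gave 12.4, 6.85, 12.9 and 9.48 CPM in the controls and 34.9, 31.1, 45.0 and 36.7 CPM with Dex, a 3.602-fold rise (log2 change 1.85, SE 0.18, adjusted p 2.57e-07). Cdkn1a, the inhibitor p21, rose from 412 to 501 CPM in the controls to 820.0 to 898 CPM with Dex (log2 change 0.92, adjusted p 5.85e-08) while it fell in WT cells (log2 change -0.29, adjusted p 0.0295; difference 1.21, SE 0.11, adjusted p 1.06e-06). The arrest genes Ccng2 and Btg1 rose 3.17-fold and 3.03-fold, while cyclin E1 (Ccne1) fell 3.45-fold and its kinase Cdk2 1.96-fold (adjusted p 1.91e-07, 6.62e-07, 4.98e-07 and 1.63e-06). Myc, the growth regulator, gave 186, 241, 167 and 213 CPM in the controls and 112, 124, 113 and 128 CPM with Dex and fell 1.69-fold (log2 change -0.76, SE 0.09, adjusted p 2.98e-06). In WT cells its log2 change of 0.10 was not called (adjusted p 0.581), and the responses differed (difference -0.86, SE 0.13, adjusted p 9.84e-05). Cdk4 fell 1.81-fold and Cdk6 rose 1.66-fold (adjusted p 2.46e-07 and 2.22e-06).

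Genes for making ribosomes, nucleotides and amino acids fell with the cell cycle genes. Of 35 genes of ribosome assembly and RNA polymerase I, 33 fell and none rose (median -1.31, -0.14 in WT). Dkc1, the pseudouridine synthase dyskerin, gave 100.1, 164, 112 and 141 CPM in the controls and 21.3, 25.97, 17.8 and 23.1 CPM with Dex (5.89-fold lower, log2 change -2.56, SE 0.17, adjusted p 3.24e-09), and the assembly factors Gar1, Rrs1, Rrp9 and Nhp2 fell 9.23-fold, 5.97-fold, 5.09-fold and 4.33-fold. Tests of these 4 gave adjusted p of 1.79e-05, 6.42e-08, 7.39e-08 and 7.39e-09. Ribosomal protein genes themselves did not follow: 33 of 56 rose and 9 fell, with a median of 0.28 that became -0.18 with totals alone. Rps27 rose 2.02-fold, while Rps2 fell 2.64-fold (2973 to 3289 CPM in the controls and 694 to 1876 CPM with Dex) (adjusted p 8.77e-08 and 0.000157). Many have near-identical processed copies, so their counts are uncertain. Of 20 aminoacyl-tRNA synthetases 18 fell (median -0.98), led by Lars and Hars (3.34-fold and 2.96-fold), and 1, Dars, rose by 0.26 (-0.19 with totals alone; not called without control replicates 6 and 8, adjusted p 0.0586). Eif4ebp1, an inhibitor of cap-dependent translation, rose 2.19-fold, and Eef1g, an elongation factor subunit, fell 2.00-fold (adjusted p 5.73e-08 and 1.74e-10).

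Genes of serine and nucleotide synthesis fell. Phgdh, the first enzyme of serine synthesis, gave 250.4, 326, 271 and 291 CPM in the controls and 42.1, 45.8, 43.6 and 44.1 CPM with Dex (6.49-fold lower, log2 change -2.70, SE 0.10, adjusted p 6.46e-12). Each group was tight and they were far apart. Psat1 and Shmt2, the following steps, fell 2.35-fold and 3.27-fold, and the cytosolic Shmt1 and Mthfd1 5.14-fold and 4.21-fold (adjusted p 1.13e-09, 2.47e-09, 1.17e-06 and 1.91e-07). Ctps, which makes CTP, fell 6.22-fold (log2 change -2.64, adjusted p 8.96e-09). The 2 isozymes of the GTP pathway parted: Impdh2 fell from 291 to 309.5 CPM in the controls to 103 to 126 CPM with Dex (log2 change -1.40, adjusted p 9.31e-11) and Impdh1 rose from 41.1 to 51.6 CPM in the controls to 144 to 161 CPM with Dex (log2 change 1.73, adjusted p 2.67e-10). Of the one-carbon and nucleotide list, 23 of 28 fell and 3 rose. The targets of ATF4, the transcription factor of the amino acid response, mostly fell, 12 of 21 (median -0.99), with 5 rising. Among all genes tested 27.4% fell and 27.3% rose. Atf4 itself rose, from 128 to 145 CPM in the controls to 259 to 278 CPM with Dex (log2 change 0.98, adjusted p 1.76e-09), as did the stress genes Ddit3 and Ppp1r15a (2.25-fold and 4.18-fold, adjusted p 0.000419 and 1.27e-09). Chac1, which breaks down glutathione, fell 12.8-fold (log2 change -3.68, adjusted p 5.53e-07; -4.301 without Dex replicate 6), and the amino acid transporter genes Slc7a5 and Slc3a2 fell 4.71-fold and 1.98-fold (adjusted p 2.96e-05 and 2.95e-08).

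Most genes of cholesterol synthesis fell. Cholesterol synthesis genes fell in 17 of 24 cases and rose in 4 (median -0.66). Dhcr7, the last enzyme of the path, gave 42.0, 55.2, 48.2 and 38.1 CPM in the controls and 17.1, 10.25, 10.8 and 14.6 CPM with Dex (3.46-fold lower, log2 change -1.79, SE 0.17, adjusted p 1.61e-07), and Mvk, Mvd and Fdps of the mevalonate section fell 2.64-fold, 2.12-fold and 2.17-fold (adjusted p 5.27e-06, 1.37e-08 and 4e-10). Among fatty acid genes the desaturases Fads2, Fads1 and Scd1 fell 4.64-fold, 2.20-fold and 1.92-fold, and the elongase Elovl6 rose 1.93-fold (adjusted p 4.82e-08, 2.75e-06, 2.26e-07 and 1.47e-07). The log2 change of Elovl6 was 0.95 here and 0.93 in WT cells, and no difference was called (difference 0.02, SE 0.12, adjusted p 0.929). Secretory pathway genes were mixed, 12 down and 6 up of 24, where 27.4% and 27.3% of all genes tested went down and up. The disulphide isomerase Pdia6 fell 2.21-fold while P4hb, also a subunit of the collagen prolyl hydroxylase, rose 3.16-fold (adjusted p 1.8e-07 and 5.19e-10).

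Surface molecules of activated and helper T cells changed in both directions. Cd40lg, through which T cells help B cells, gave 64.4, 92.0, 64.3 and 70.3 CPM in the controls and 20.1, 17.8, 12.5 and 9.03 CPM with Dex (4.96-fold lower, log2 change -2.31, SE 0.19, adjusted p 3.14e-08). The inhibitory receptors Pdcd1 (PD-1), Btla and Tigit fell 3.57-fold, 2.95-fold and 2.63-fold, and Cd200 2.65-fold (adjusted p 3.31e-08, 2.2e-09, 8.83e-09 and 4.05e-10). Of the co-inhibitory list 7 of 10 fell, and 1 rose, the checkpoint VISTA (Vsir), from 22.6 to 43.4 CPM in the controls to 111 to 148 CPM with Dex (3.84-fold, log2 change 1.94, adjusted p 2.17e-08). Icos, a costimulatory receptor, gave 70.9, 57.3, 48.2 and 48.3 CPM in the controls and 233, 281, 276 and 296 CPM with Dex, a 4.83-fold rise (log2 change 2.27, SE 0.13, adjusted p 4.84e-10). Among TNF family genes 12 of 21 rose and 5 fell (median 0.33, -0.13 with totals alone), where 27.3% and 27.4% of all genes tested did. Ltb and Lta, the lymphotoxins, rose 3.41-fold and 1.78-fold (adjusted p 3.09e-07 and 4.66e-06), and Lta fell in WT cells (log2 change -0.43, adjusted p 0.017; difference 1.27, SE 0.15, adjusted p 1.15e-05). OX40 (Tnfrsf4) fell 1.96-fold and 4-1BB (Tnfrsf9) rose 1.76-fold, while the death ligand TRAIL (Tnfsf10) fell 8.64-fold (adjusted p 3.14e-09, 5.81e-06 and 4.23e-06).

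Genes of resting and recirculating T cells were higher in part. Ccr7, which guides T cells into lymph nodes, gave 404, 262, 456 and 349 CPM in the controls and 1351, 1529, 1430 and 1626 CPM with Dex (4.04-fold, log2 change 2.01, SE 0.15, adjusted p 1.05e-08). Il7r, the receptor for the survival cytokine IL-7, rose 2.71-fold, the quiescence factor Foxp1 3.85-fold and the chromatin organiser Satb1 2.13-fold (adjusted p 1.66e-06, 2.67e-10 and 7.14e-08). S1pr1, the exit receptor of lymph nodes, went the other way, from 14.9 to 16.9 CPM in the controls to 5.71 to 7.97 CPM with Dex (log2 change -1.18, adjusted p 3.71e-06). The stem-like list counted 7 rises and 4 falls of 12, and the list of FOXO targets and quiescence genes 11 and 4 of 19. With totals alone these were 4 and 4 (median 0.17) and 7 and 5 (median 0.14). Among all genes tested 27.3% rose and 27.4% fell. Of the regulatory T list, 6 rose and 7 fell of 15 (6 and 3 without control replicates 5 and 7, 4 and 5 without 6 and 8). Its deepest fall was that of Entpd1 (log2 change -1.01), and its 2 largest rises were those of Nt5e and Lrrc32. Nt5e, the ectoenzyme CD73 that makes adenosine, rose from 0 to 1.17 CPM in the controls to 8.12 to 12.3 CPM with Dex (log2 change 3.81, adjusted p 4.81e-06), and Lrrc32, which docks latent TGF-beta on the cell surface, rose 3.85-fold (log2 change 1.94, adjusted p 7.85e-07).

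Genes of T cell receptor signalling, the immediate early genes and those of NF-kB were called in both directions as well. Of 25 tested genes of T cell receptor signalling, 6 rose and 9 fell (median -0.07). Of 19 tested immediate early genes, 5 rose and 6 fell (median -0.16). Over all genes tested the shares were 27.3% and 27.4%. The adaptors Lcp2 (SLP-76) and Lat fell 2.29-fold and 2.12-fold, and the paracaspase Malt1 and the ubiquitin ligase Cblb rose 3.31-fold and 2.39-fold (adjusted p 3.78e-08, 1.02e-08, 8.63e-10 and 1.48e-07). Egr2, an early gene of receptor stimulation, fell 3.36-fold (log2 change -1.75, adjusted p 4.56e-06), whereas Jun rose 3.17-fold and Ier3, an anti-apoptotic early gene, 4.28-fold (adjusted p 7.81e-08 and 2.61e-10). Of NF-kB subunits, inhibitors and targets 15 of 24 rose and 5 fell (median 0.45, and -0.005 with totals alone), and in WT cells none rose and 8 fell. The response was more positive in KO cells for 11 of them and more negative for 1. Nfkb1, the p50 precursor, gave 65.3, 61.8, 61.6 and 61.0 CPM in the controls and 126, 179, 157 and 179.6 CPM with Dex (2.57-fold, log2 change 1.36, SE 0.10, adjusted p 8.52e-09), with 0.05 in WT (difference 1.31, SE 0.14, adjusted p 4.18e-06). Interferon-stimulated genes fell in 13 of 23 cases and rose in 5. The virus-tethering protein Bst2 fell 3.05-fold and Ifi27l2a 2.40-fold, while the RNA sensor regulator Dhx58 rose 3.90-fold (adjusted p 3.15e-08, 2.53e-08 and 4.06e-06).

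Genes of the BCL2 family, which set survival against death, were split: 6 of 15 tested rose and 3 fell, with a median of -0.28, against 4 rises and 8 falls with totals alone. The shares over all genes tested were 27.3% and 27.4%. Bcl2l11, which encodes the killer protein BIM and is a known glucocorticoid effector in lymphocytes, gave 1.63, 1.37, 1.61 and 0.758 CPM in the controls and 12.6, 15.4, 18.7 and 13.6 CPM with Dex (11.2-fold, log2 change 3.49, SE 0.27, adjusted p 1.48e-08). Pmaip1 (NOXA), another killer, rose 2.88-fold. The survival genes Bcl2 and Mcl1 rose too, 2.86-fold and 3.38-fold, while Bcl2l1 (BCL-XL) fell 1.53-fold (adjusted p 8.96e-06, 9.23e-09, 5.68e-09 and 3.21e-06). Of p53 targets 11 of 16 rose and 2 fell (median 0.86), against 6 rises and 5 falls with totals alone (median 0.40). The death receptor Fas rose 2.17-fold and the p53 ligase Mdm2 1.85-fold, whereas Trp53 itself fell 1.77-fold (adjusted p 4.49e-06, 3.58e-05 and 1.15e-06). Autophagy and lysosome genes rose in 13 of 27 cases and fell in 2 (median 0.37, -0.093 with totals alone). Among them were the cargo receptor Sqstm1 and the membrane marker Map1lc3b, 2.07-fold and 2.01-fold higher (adjusted p 1.07e-07 and 1.21e-08). Clock genes rose in 7 of 13 cases and none fell (5 rose and 1 fell without control replicates 6 and 8), including the core activator Arntl (BMAL1), 3.47-fold, and the repressor Ciart, 4.68-fold (adjusted p 8.18e-08 and 1.02e-06).

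TGF-beta genes rose in 11 of 17 cases, 7 of them without control replicates 6 and 8, and 1, the repressor Ski, fell (median 0.85). Besides Plaur, the plasmin-related genes Anxa2 and S100a10, which form the annexin A2 complex on the cell surface, rose 2.49-fold and 1.36-fold (adjusted p 2.72e-11 and 4.59e-06; S100a10 was at -0.021 in log2 with totals alone). The protease inhibitor Serpine2 fell 2.98-fold (log2 change -1.58, adjusted p 6.14e-05). The calcium-binding S100a4 and S100a6 fell 5.90-fold and 4.41-fold, and the galectin Lgals1 2.42-fold (adjusted p 0.000105, 6.15e-08 and 3.77e-08).

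Iron and redox genes moved in both directions. Fth1, the ferritin heavy chain, gave 549, 501, 595 and 475 CPM in the controls and 2952, 2713, 2681 and 2910 CPM with Dex, a 5.31-fold rise (log2 change 2.41, SE 0.08, adjusted p 2.55e-12). The transferrin receptor Tfrc, which brings iron in, fell from 118 to 140.1 CPM in the controls to 58.7 to 75.6 CPM with Dex (2.00-fold, log2 change -1.004, adjusted p 1.66e-06). Iron genes counted 5 rises and 4 falls of 11, where 27.3% and 27.4% of all genes tested rose and fell. They counted 2 rises without control replicates 6 and 8. Of the peroxiredoxins, which remove peroxides, Prdx5 and Prdx6 rose 2.81-fold and 2.79-fold, and Prdx1, Prdx2 and Prdx3 fell 2.38-fold, 1.58-fold and 2.37-fold (adjusted p 9.27e-09, 2.72e-11, 8.86e-08, 2.69e-07 and 6.58e-08). Thioredoxin (Txn1), whose inhibitor Txnip rose, fell 2.50-fold (log2 change -1.32, adjusted p 6.48e-09). The zinc importers Slc39a8 and Slc39a14 rose 3.02-fold and 2.30-fold (adjusted p 1.64e-06 and 0.000447). Their list, of metallothioneins and zinc genes, counted 4 rises, 2 falls and 5 not called among 11 tested, with a median of -0.07.

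The list of chromatin enzymes, of histone H3 lysines 9 and 27 and of DNA methylation, counted 14 rises and 3 falls among 23 tested. With totals alone it counted 7 rises and 6 falls, with a median of 0.016. Kdm6b, which removes lysine 27 methylation, rose 4.06-fold (log2 change 2.02, adjusted p 1.39e-06), and the writer Ezh1 3.13-fold (log2 change 1.64, adjusted p 8.64e-07). Suv39h1, a lysine 9 methyltransferase, and Dnmt1, which copies DNA methylation at replication, fell 2.97-fold and 2.55-fold (adjusted p 1.66e-07 and 5.18e-08).

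Noncoding RNAs leaned upward. Of 290 lincRNA genes tested 148 rose and 26 fell (median 0.94), and of 222 antisense genes 73 rose and 10 fell (median 0.72), against 2683 and 2892 of 10074 protein-coding genes (median -0.015). The nuclear RNAs Malat1 and Neat1, named after their values were seen, rose 3.41-fold and 3.64-fold: Malat1 gave 1289, 690.4, 1236 and 959.9 CPM in the controls and 3906, 3541, 3964 and 2816 CPM with Dex. In 4 equal groups by transcript length, the longest (4567 bases and over) had a median change of 0.24, and the others, by falling length, -0.002, -0.11 and -0.095. In 4 equal groups by mean level, the lowest had a median of 0.16 and the highest -0.12. The protocol is not stated to keep strand, so antisense genes and their partners cannot be told apart, and the part of length, level and repeat counts in these rises was not tested. Also named after its values were seen is Gm5483, a stefin A gene on chromosome 16, which gave 8.63, 6.26, 6.96 and 5.12 CPM in the controls and 376, 464, 382 and 409.9 CPM with Dex (61.0-fold, log2 change 5.93, SE 0.26, adjusted p 5.32e-11). Stefin A genes are near-identical copies, so which copy it was is uncertain.

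**Figure D4:**
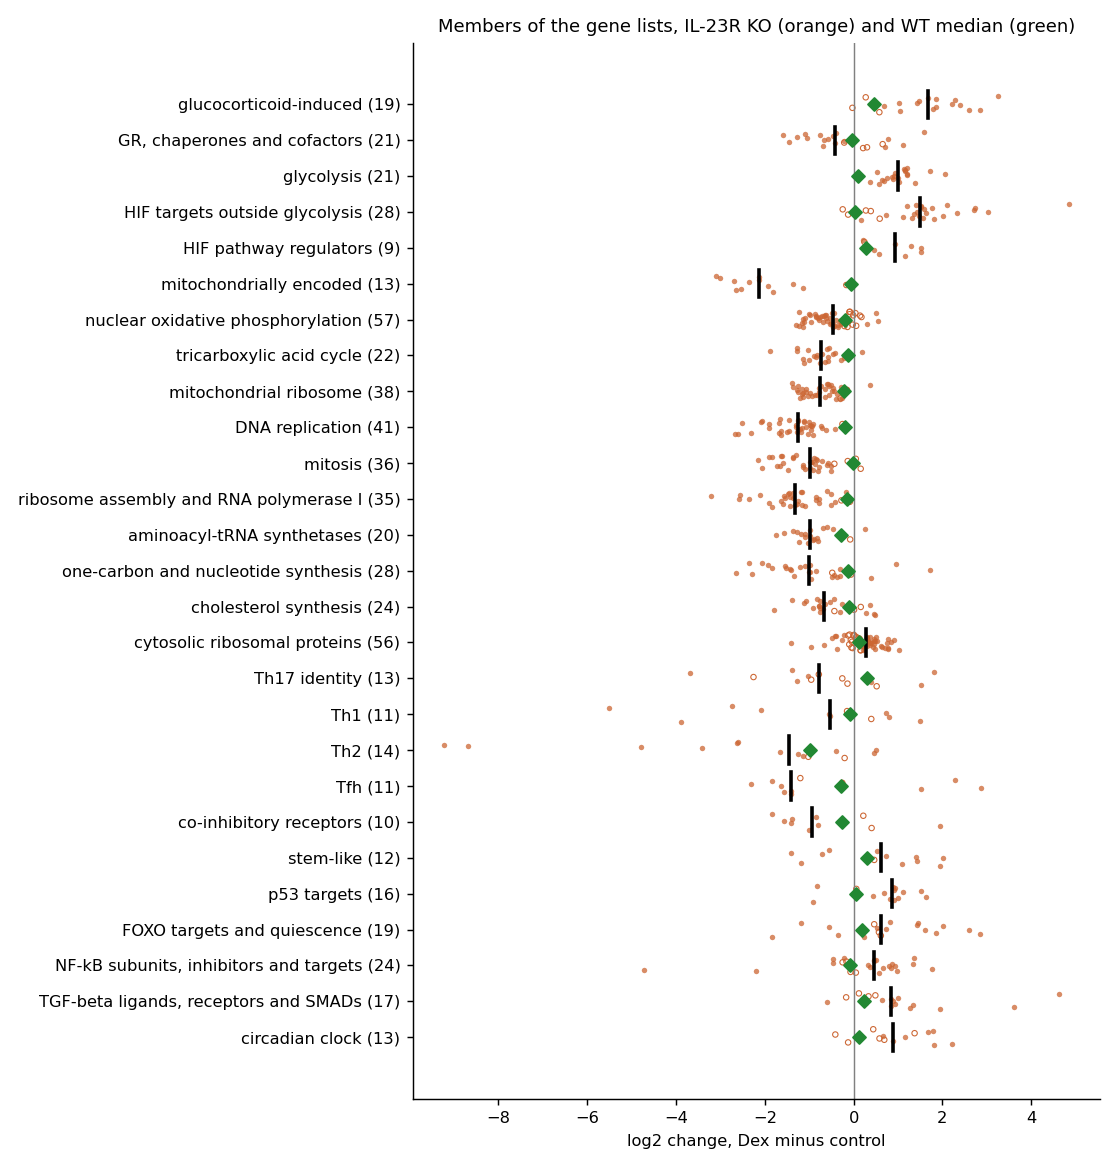
Log2 change (Dex minus control, x axis) of the tested members of 27 gene lists (y axis, number tested in brackets) in IL-23R KO cells; filled points are genes called at an adjusted p under 0.05, open points are not called, black bars are the KO medians and green diamonds the WT medians. The fitted values farthest to the left, Il5 and Il13, rest on 1 and 2 counts with Dex and have no exact size. The KO medians of glycolysis and HIF targets lie to the right of 0 and those of mitochondrially encoded, replication and ribosome assembly genes to the left, with WT medians nearer 0 in each.

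In WT cells the same treatment changed 874 genes (8.08%), 106 of them 2-fold or more upward and 94 downward. That count fell to 531 without WT control replicate 2 and to 571 without WT Dex replicate 3. The Dex response differed between genotypes for 3487 genes (32.2%), 1623 more positive (15%) and 1864 more negative (17.2%) in IL-23R KO cells. Genes described above for a large change in KO cells were chosen by that change, which favours a larger value there than in WT cells. Across the 10813 genes the changes of the 2 genotypes correlated with r = 0.44, a description across genes, which are not independent replicates. No library is shared between the 2 contrasts, but all WT libraries carry replicate numbers 1 to 4 and all KO libraries 5 to 8, so genotype and any batch that goes with the number cannot be told apart.

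**Figure D5:**
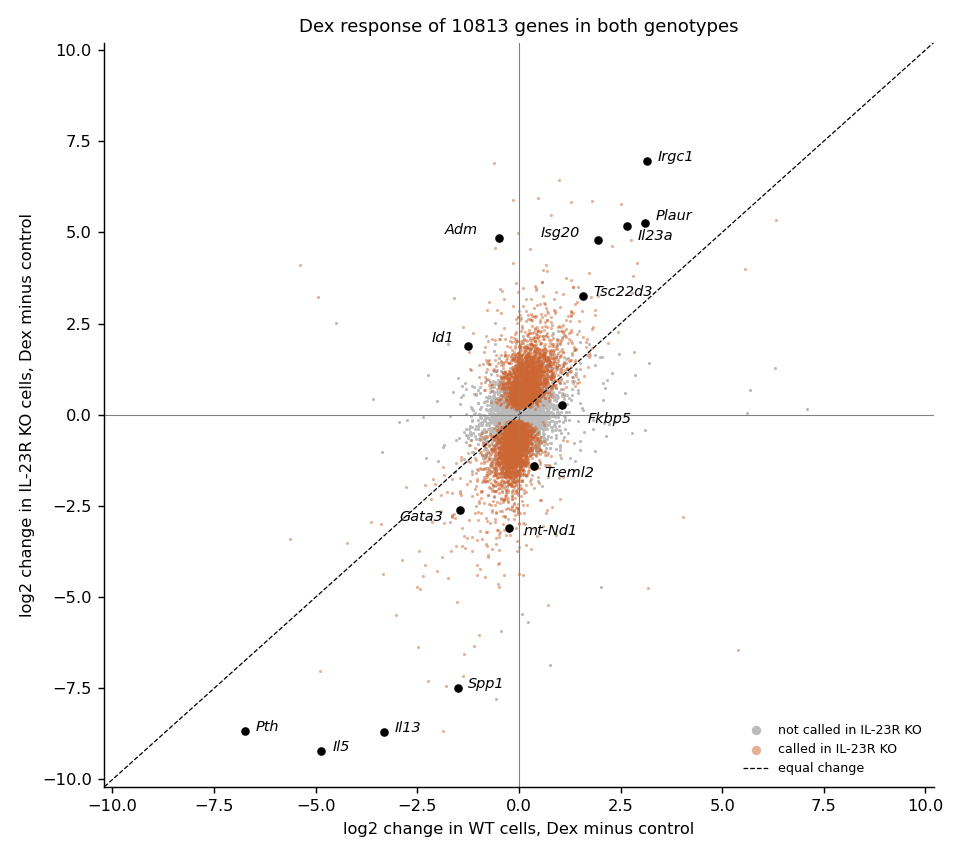
Log2 change with Dex in IL-23R KO cells (y axis) against that in WT cells (x axis) for the 10813 genes tested; orange points were called in KO cells, grey points were not, and the dashed line marks equal change. Black points are named genes. Fkbp5 lies near 0 on the KO axis, and Id1 and Treml2 have opposite signs in the 2 genotypes.

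For 52 genes the change was called in both genotypes with opposite signs, 34 of them upward in KO and downward in WT cells, and the difference was called for all 52. Id1, an inhibitor of helix-loop-helix factors and a target of TGF-beta family signals, gave 2.57, 3.91, 5.36 and 3.22 CPM in the controls and 14.7, 15.4, 15.6 and 10.1 CPM with Dex (log2 change 1.89, adjusted p 2.42e-05), against -1.26 in WT cells (difference 3.15, SE 0.41, adjusted p 2.81e-05). Gadd45b, a stress gene, rose by 1.22 in KO and went to -1.17 in WT cells (difference 2.39, SE 0.33, adjusted p 4.15e-05). Higd1a, a mitochondrial protein of the hypoxia response, rose by 1.43 and was at -0.26 in WT cells (difference 1.68, SE 0.11, adjusted p 3.32e-08). Treml2, a receptor of the TREM family, fell in KO cells (-1.40) and rose in WT cells (0.37; difference -1.77, SE 0.17, adjusted p 1.59e-06). The leukocyte protein Lsp1 also fell in KO cells (-0.71) and rose in WT cells (0.53; adjusted p of the difference 9.04e-06).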

How the data were processed

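Poly(A) RNA of sorted T cells in culture was measured in 16 libraries, 4 each of KO and WT cells with and without Dex. The values are estimated counts per gene symbol made by the authors with RSEM 1.3.3 on mm10, per the submitters' processing notes, and deposited as whole numbers. No source used here names the aligner, the annotation or any rounding step. The table held 31053 symbols, of which 98.3% were found in GENCODE M21, and libraries held 3320586 to 4732419 counts.

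Genes were filtered with filterByExpr (count 10, total 15), sizes scaled by TMM, and 1 quasi-likelihood model fitted in edgeR 4.0.16 (R 4.3.3) to all 16 libraries. Contrasts were the KO response, the WT response and their difference. The model was first tested on simulated counts in which few genes changed, as many up as down. That test could not check the scaling where many genes and the repeat share move. Counts with 1 to 3 in a group are given as ratios with exact 95% intervals, which cover counting error only. DESeq2 1.42.0, other scalings, filters, left-out libraries and a replicate block were alternatives. Promoter sequences are from RefSeq.

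The members and gene lists were chosen with earlier results of these data known. Named genes are drawn from the genes of direct interest, up to 15 per direction with the largest non-overlapping changes (mean of 10 CPM or more in the higher group), up to 4 and 2 members per list by size in either direction, list members at 100 CPM or more, up to 5 per direction with opposite changes in the genotypes, and the 5 highest genes of a group. Exceptions are said to be named after their values were seen. The other libraries of the series are not analysed here, and some genes are not reported here.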

Additional observations from a re-analysis of the deposited data

Results flagged for a closer look

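Among 110 groups of 4 values looked at, 11 had a library far from the other 3 by Dixon's criterion, where chance gives about 1 in 20 groups. With Dex these were Fasl in replicate 7 (3.681 CPM), Fkbp5 in replicate 7 (6.229 CPM), Id1 in replicate 8 (10.09 CPM), Ifng in replicate 8 (0.7969 CPM), Il13 in replicate 5 (0.6011 CPM), Il5 in replicate 5 (0.3005 CPM), Il9 in replicate 7 (13.59 CPM), Ly6g in replicate 7 (5.38 CPM), Txnip in replicate 8 (168.7 CPM) and Tyms in replicate 6 (7.518 CPM). Among the controls it was Pth in replicate 7 (18.22 CPM). Those of Ifng, Il13 and Il5 are libraries with 1 to 3 counts beside libraries with none.

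The response to Dex differed between genotypes, by the test of the difference, for 3487 genes. Among those described, the difference in log2 (KO response minus WT response) was 5.35 for Adm, 3.15 for Id1, 2.39 for Gadd45b, 1.68 for Higd1a and 1.68 for Tsc22d3, and it was -1.77 for Treml2 and -0.78 for Fkbp5, the last not called under several alternatives (adjusted p 0.0507 to 0.102).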

How the results depend on the processing

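The number of genes changed in IL-23R KO cells was 5421 to 5999 with 1 library left out and 4227 to 6600 under the other settings, and that of genes changed 2-fold was 2234 to 2638 and 1310 to 3072, the lowest being the 1310 among genes at a mean of at least 10 CPM, where fewer genes were tested. The WT number was 531 to 950 with 1 library left out and 685 to 925 otherwise, and that of genes with a different response 3077 to 3643 and 2818 to 4208. Leaving out control replicates 6 and 8, added after the data were seen, gave 4518 genes, 1939 of them 2-fold, and 2460 with a different response, and leaving out 5 and 7 gave 5782, 2954 and 3799. Signs were looked at only for the genes named here, 237 with a called KO change and 213 with a called difference. Among these, signs turned only with scaling by library totals alone. The KO change was then -0.194 for Dars, -0.24 for Hif1a, -0.276 for Idh3b, -0.09 for Ldha, -0.003 for Nfkbia, -0.021 for S100a10 and -0.064 for Stat3, and the difference between genotypes was -0.027 for Dars and -0.029 for Uqcrh, and this scaling moves every gene alike. Same-numbered libraries did not deviate together (correlations -0.013, -0.002, 0.029 and 0.044), so the numbers are not taken to pair the samples, and a replicate block gave 5790 KO, 810 WT and 3345 difference calls. Depth limits what can be said of genes with few or no counts, such as Il17a, Il17f and Csf2, and composition differed between the groups compared.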

Other observations

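Cytokine receptor genes were called in both directions. Of 27 receptors and their SOCS feedback inhibitors tested, 8 rose and 4 fell, where 27.3% and 27.4% of all genes did, with a median log2 change of 0.31 (-0.15 with totals alone). The IL-10 receptor chain Il10ra rose 2.38-fold, from 30.3 to 44.3 CPM in the controls to 77.8 to 96.4 CPM with Dex (log2 change 1.25, adjusted p 4.76e-07), the interferon gamma receptor Ifngr1 2.07-fold and the IL-2 and IL-15 receptor chain Il2rb 1.88-fold (edgeR adjusted p 5e-05 and 4.16e-08). Il2ra, the high-affinity IL-2 receptor chain CD25, fell 1.25-fold, from 372 to 392 CPM in the controls to 281 to 314 CPM with Dex (log2 change -0.33, adjusted p 0.00171). The response was more positive than in WT cells for Il10ra and Il2rb (difference 1.14, SE 0.19, adjusted p 0.000211 and difference 0.89, SE 0.11, adjusted p 1.29e-05). Among genes of migration and adhesion, Gpr183, a receptor for oxysterols that guides lymphocytes, rose 3.09-fold, the integrin chain Itgav 2.54-fold and the adhesion molecule Icam1 1.96-fold (adjusted p 1.04e-05, 5.2e-06 and 4.86e-07), and Cd44, a hyaluronan receptor of activated T cells, fell 1.6-fold (log2 change -0.68, adjusted p 0.000476). Sh2d1a, the adaptor SAP of follicular helper cells, fell 3.12-fold (log2 change -1.64, adjusted p 3.14e-09), one of 6 falls and 3 rises among 11 tested genes of that list.

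Genes often used as references for expression moved in both directions: of 15 tested, 5 rose and 10 fell. Besides Gapdh, B2m, the light chain of MHC class I, rose 1.95-fold, from 2044 to 2601 CPM in the controls to 4461 to 4716 CPM with Dex (log2 change 0.96, adjusted p 7.77e-09). Actb, cytoplasmic actin, fell 1.52-fold (log2 change -0.61, adjusted p 6.72e-06), and the lysosomal enzyme gene Gusb gave 29.9, 46.6, 26.5 and 38.7 CPM in the controls and 3.91, 6.15, 4.53 and 9.03 CPM with Dex, a 5.96-fold fall (log2 change -2.58, SE 0.24, adjusted p 1.52e-07).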
